A study of Mus musculus with 2 samples.

Results

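Olfr1507, Olfr1508 and Olfr1509 are 3 odorant receptor genes of mouse chromosome 14 that lie beside the H element, an enhancer. They were taken by name from a table of 1112 olfactory receptor (Olfr) entries, in which each of the 3 has a single row. The table comes from RNA-seq of the olfactory epithelium, the nasal tissue of the sensory neurons, of adult C57BL/6 mice. The 2 samples of the series are both labelled wild type in title and genotype, while the description of the second reads 3bko, a term that the labels do not explain. The table gives 1 FPKM (fragments counted on the gene model, divided by its length and by the mapped fragments) for each entry and, beside it, the words wt and 3bko in 2 sample columns that are the same in every row. It does not say whether the FPKM belongs to wt, to 3bko or to both, so each value below is the authors' single value, with no replicate error, and depth is unknown. The table holds none of the 12 marker genes that were listed to check the tissue, since it is limited to receptors.

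Odorant receptors are G protein-coupled receptors, and each mature olfactory sensory neuron transcribes a single receptor allele out of the whole repertoire. Enhancers scattered among the receptor clusters act on the receptor genes near them, and the H element, bound by the LHX2 and EBF factors, is the classical example. It lies upstream of Olfr1507 and acts in cis on Olfr1507 (also MOR28), Olfr1508 (MOR10) and Olfr1509 (MOR83). Transcript level in whole tissue reflects both how many neurons chose a receptor and how much RNA each of them holds, and bulk RNA cannot tell these apart.

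The 3 genes make up a receptor family of their own. They are the 3 entries of the table that carry a MOR244 name among their RefSeq synonyms. Olfr1507 and Olfr1508 were near copies, with 88.2% identical residues over 313 alignment columns of their proteins, while Olfr1509 shared 60.7% with Olfr1507 and 63.0% with Olfr1508. Among 1074 other receptors the highest identity was 52.1% with Olfr1507 (Olfr728, at an FPKM of 5.76), 52.2% with Olfr1508 (Olfr728 again) and 57.6% with Olfr1509 (Olfr1269 of chromosome 2, at an FPKM of 0.992). Each member was therefore more alike to both of the others than to any other receptor compared. The lowest identities were 6.05% with Olfr1507, 4.52% with Olfr1508 and 4.87% with Olfr1509, against medians of 39.2%, 40.3% and 41.9%. The reason for such low values was not tested, so the comparison may not hold for those receptors.

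**Figure D1:**
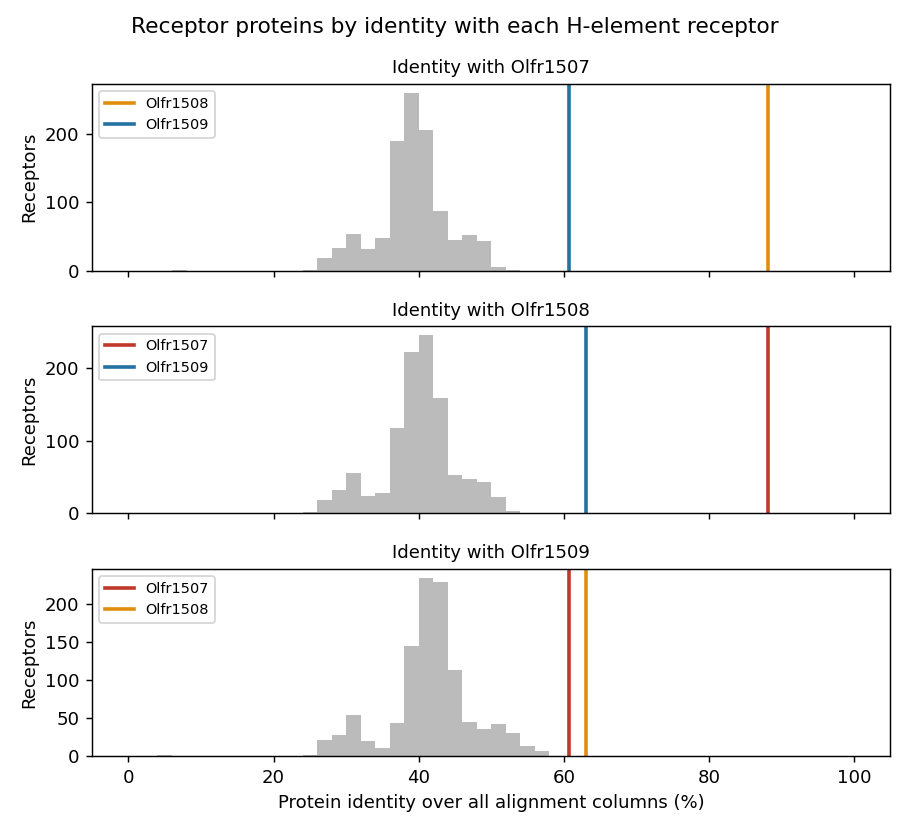
Histograms of the protein identity (x axis, percent over all alignment columns) of each of the 3 receptors with 1074 other receptors (y axis, number of receptors, grey bars of 2 percentage points). Coloured lines mark the other members, at 60.7% to 88.2%, which lie to the right of every grey bar.

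The relation is visible in the coding sequences. The stretch below encodes the region around the DRY motif, the G protein contact at the inner end of the third transmembrane helix that odorant receptors share. Capitals mark bases that are not the same in all 3 genes. The coordinates of these stretches are GRCm38, read from the GENCODE M21 transcripts, and cannot be set against the mm9 coordinates of the table. The stretches are chr14:52490573-52490602 (minus strand) in Olfr1507, chr14:52463618-52463647 (minus strand) in Olfr1508 and chr14:52450766-52450795 (plus strand) in Olfr1509.
Olfr1507: atggcCtatgatcgCtatgtggcCatTtgT
Olfr1508: atggcCtatgatcgCtatgtggcTatTtgT
Olfr1509: atggcGtatgatcgTtatgtggcTatCtgC
The 10 residues encoded were the same in all 3, although 5 of the 30 bases were not. Olfr1508 differed from Olfr1507 at 1 of these bases and Olfr1509 at 5.

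The longest stretch that Olfr1507 and Olfr1508 share without a difference is shown next. A read that falls wholly inside it cannot by itself be assigned to either gene. It runs over 143 bases, from base 650 to base 792 of both coding sequences (chr14:52490171-52490313 in Olfr1507 and chr14:52463216-52463358 in Olfr1508, GRCm38, minus strand). Below it stands the aligned stretch of Olfr1509 (chr14:52451055-52451197, plus strand), with capitals again at the bases that are not the same in all 3.
Olfr1507 and Olfr1508: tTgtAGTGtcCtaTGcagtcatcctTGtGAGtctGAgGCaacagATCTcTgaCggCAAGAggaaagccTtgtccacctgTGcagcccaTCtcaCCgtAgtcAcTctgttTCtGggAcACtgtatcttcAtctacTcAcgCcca
Olfr1509: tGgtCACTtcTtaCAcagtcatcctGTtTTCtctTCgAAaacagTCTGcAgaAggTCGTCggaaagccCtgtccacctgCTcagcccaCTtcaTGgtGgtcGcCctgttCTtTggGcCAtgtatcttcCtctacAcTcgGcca
Olfr1509 differed from the other pair at 48 of these 143 bases. Its longest exact match to either of them anywhere in the coding sequence was 14 bases.

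The 60 bases that best separate Olfr1507 from Olfr1508 lie at bases 425 to 484 of the coding sequences (chr14:52490479-52490538 and chr14:52463524-52463583, GRCm38, minus strand). Capitals mark the 12 bases at which the pair differs.
Olfr1507: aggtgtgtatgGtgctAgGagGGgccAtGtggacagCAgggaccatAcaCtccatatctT
Olfr1508: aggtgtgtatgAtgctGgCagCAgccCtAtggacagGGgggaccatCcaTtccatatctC
Over the 921 bases that align before a gap of 3 codons near the end, the pair differed at 64 bases and 33 residues. The differences were fewer in the first 100 codons, at 13 bases, than in codons 101 to 200, at 27 bases, or in the 107 codons after those, at 24 bases.

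Olfr1507 was among the most abundant receptors of the table, and the other members were moderately above its middle. Olfr1507 had an FPKM of 36.0, Olfr1509 had 4.02 and Olfr1508 had 3.15. Olfr1507 thus stood 8.98-fold above Olfr1509 and 11.4-fold above Olfr1508, and 5.03-fold above both of them summed. Olfr1509 was 1.27-fold above Olfr1508, and without replicates the order of these neighbouring values could not be tested. All 3 had the status OK, which 909 of the 1112 entries share, and all 3 were at an FPKM of 1 or more, as were 52.5% of all entries.

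Olfr1507 ranked 4 of 1112, between Olfr166 of chromosome 16 at 36.5 and Olfr6 of chromosome 7 at 28.7. Its FPKM was 33.1-fold the median of all entries, 1.09. Olfr1509 ranked 204, between Olfr1424 at 4.02 and Olfr176 at 4.01, and stood 3.69-fold above that median. Olfr1508 ranked 270, between Olfr11 at 3.18 and Olfr794 at 3.13, and stood 2.90-fold above it. Of all entries, 75.7% were lower than Olfr1508 and 81.7% lower than Olfr1509. The 3 genes are 0.270% of the entries and held 1.46% of the summed FPKM, of which Olfr1507 alone made up 1.22%. Within the sum of the 3, Olfr1507 took 83.4%, Olfr1509 9.29% and Olfr1508 7.29%.

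**Figure D2:**
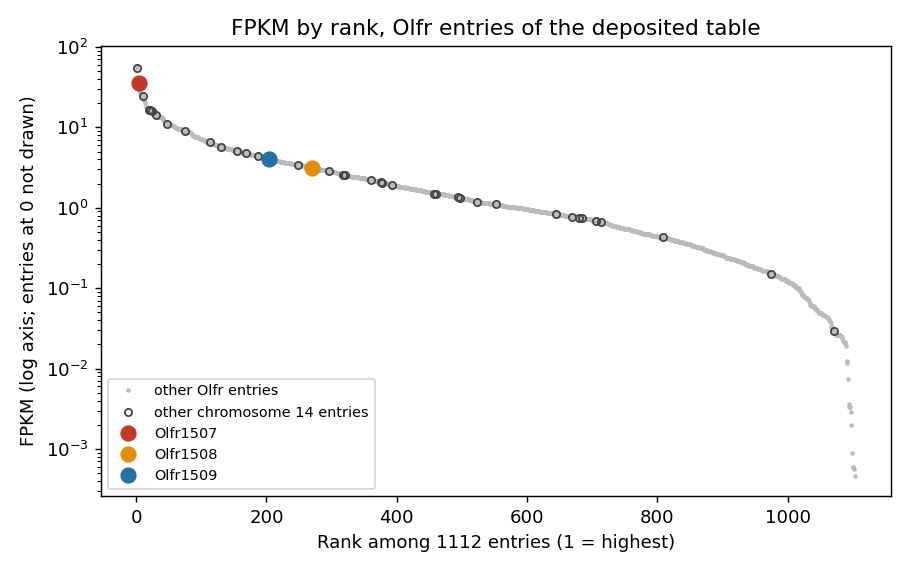
FPKM (y axis, log scale) of each Olfr entry against its rank (x axis, 1 is the highest of 1112). Open circles are the other chromosome 14 entries and filled circles the 3 receptors, of which Olfr1507 lies at rank 4 and the others at ranks 204 and 270.

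The chromosome 14 receptors were a more abundant background than the whole table, and against them Olfr1508 and Olfr1509 were close to the middle. Of the 39 entries on chromosome 14, 30 (76.9%) had an FPKM of 1 or more and 8 (20.5%) had 10 or more, against 5.40% of all entries at 10 or more. The chromosome 14 median was 2.54 with the members counted, as used below, and 2.15 over the 36 other entries. Olfr1507 ranked 2 of 39, below Olfr727 at 55.4 and above Olfr741 at 24.5, Olfr726 at 16.5 and Olfr740 at 16.3. Its FPKM was 14.2-fold the chromosome 14 median, or 3.77 higher on the log2(FPKM + 0.1) scale. Olfr1509 ranked 15 of 39, at 1.58-fold the median (0.64 on the log2 scale), and Olfr1508 ranked 17, at 1.24-fold (0.30). Together the 3 held 16.3% of the summed FPKM of the chromosome, being 7.69% of its entries.

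The members lie side by side at one end of a receptor cluster. In mm9 the order by position is Olfr1509 (53070068 to 53071077), Olfr1508 (53082396 to 53087136) and Olfr1507 (53109610 to 53115370), with no other entry between them. The gap from Olfr1509 to Olfr1508 is 11.3 kb and that from Olfr1508 to Olfr1507 is 22.5 kb, against a median gap of 19.3 kb between neighbouring entries within clusters of the whole table. The loci together span 45.3 kb. Beyond Olfr1507 the next entry of the chromosome, Olfr49, lies 1786 kb away, so Olfr1507 is the last of the 36 entries of its cluster. On GRCm38 RefSeq places the members between Trav1 and Trav2, V segments of the T cell receptor alpha locus, with no RefSeq gene between Trav1 and Olfr1507 other than the members. GENCODE M21 puts Olfr1507 and Olfr1508 on the minus strand and Olfr1509 on the plus strand. Olfr1508 and Olfr1509 therefore point toward each other, and Olfr1509 is the 1 gene on the plus strand among the 7 receptors that end the cluster.

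The level along this run did not fall steadily with the distance from Olfr1507. The 4 receptors before the members, which carry MOR223 names, were lower than each of the members. Olfr1510, at 39.5 kb from Olfr1509, had an FPKM of 1.50, Olfr1511 had 2.54, Olfr1512 had 0.426 and Olfr1513 had 0.739. With Olfr49 at 1.93, this list of numbered neighbours had a median of 1.50, and 3 of its 5 genes were at 1 or more. Olfr1507 was 14.2-fold above the highest of them, Olfr1511.

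**Figure D3:**
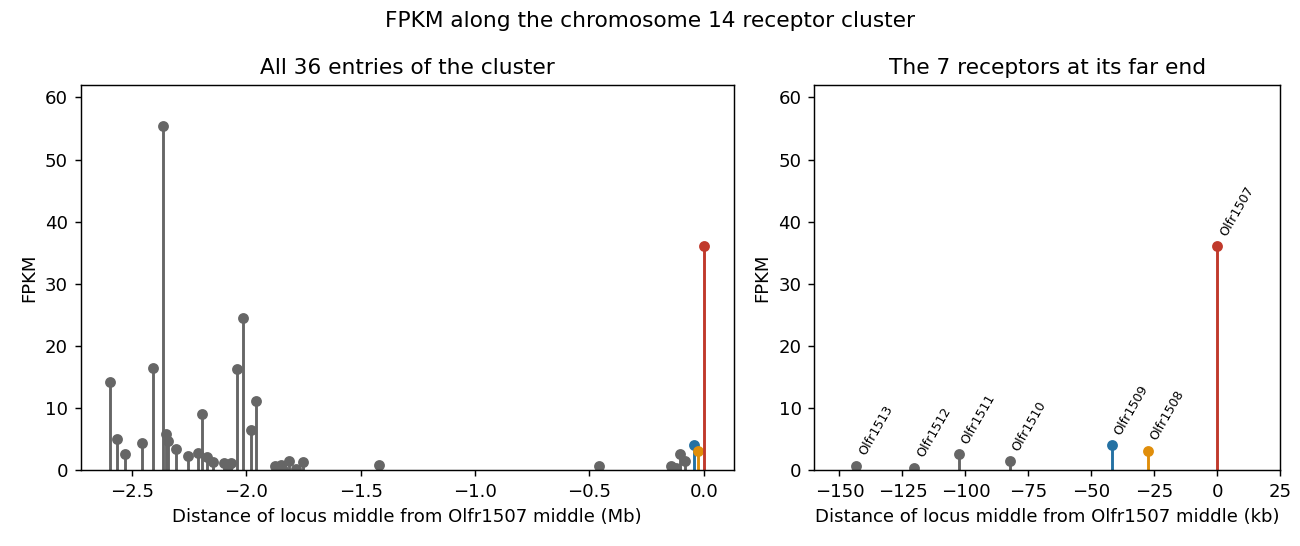
FPKM (y axis) against the distance of each locus from Olfr1507 (x axis), in Mb for all 36 entries of the cluster on the left and in kb for its last 7 receptors on the right. Olfr1507 (red, 36.0) stands at the end of the cluster beside Olfr1508 (orange, 3.15) and Olfr1509 (blue, 4.02), and the other 6 entries at an FPKM of 10 or more, led by Olfr727 at 55.4, lie 1956 kb or more away.

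With clusters split at gaps of 1 Mb, Olfr1507 was the highest receptor at the end of any large cluster. This depends on that limit, because its own cluster holds a gap of 964 kb before its last receptors. Other limits were not tried. In the 21 clusters of at least 10 entries there are 42 end entries, of which 3 (7.14%) had an FPKM of 10 or more, against 5.40% of all entries. The next highest of the 42 after Olfr1507 had 15.6, and their median was 1.79. Of the 60 entries at 10 or more, the median stood 2.27-fold above the higher of its adjacent entries, and Olfr1507, at 11.4-fold above Olfr1508, ranked 10. Being the end of its cluster, Olfr1507 has 1 adjacent entry, whereas 54 of the 60 have 2.

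The fold between Olfr1507 and Olfr1508 was also set beside that of all neighbours. Of 1045 adjacent pairs with both values above 0, this pair included, 183 (17.5%) differed by at least as much, and the median fold was 3.02. The fold of Olfr1509 over Olfr1508 was small beside these, as 88.7% of the pairs differed by at least as much. Both shares count pairs with a value close to 0, for instance a pair 5003-fold apart, since no higher floor was set. Within the cluster of the members, 5 of 35 adjacent pairs, Olfr1507 and Olfr1508 among them, differed by at least 11.4-fold. The median fold of those 35 was 1.73. Among the 286 adjacent pairs with at least 80% protein identity, the median fold was 2.51 and 33 pairs (11.5%), Olfr1507 and Olfr1508 among them, differed by at least 11.4-fold. The 80% threshold was chosen after the values were seen.

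**Figure D4:**
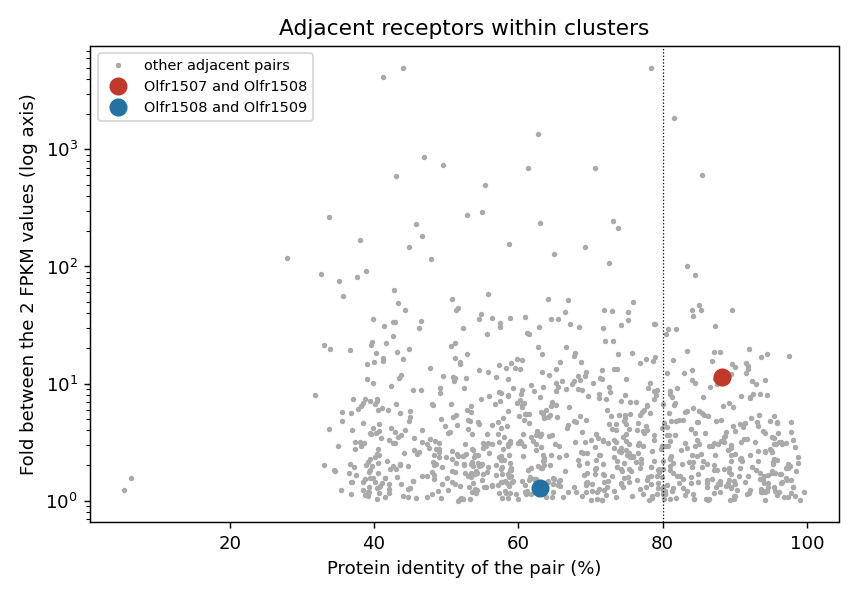
Fold between the FPKM values of adjacent receptors (y axis, log scale) against the identity of their proteins (x axis, percent), for 983 adjacent pairs with both proteins at hand. The pair of Olfr1507 and Olfr1508 lies at 88.2% and 11.4-fold, in the upper part of the pairs right of the dotted line at 80%, and the pair of Olfr1508 and Olfr1509 at 63.0% and 1.27-fold.

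How far the values of the near copies can be trusted depends on how shared reads were treated, a step that no source used here describes. In the coding sequence of Olfr1507, 82.1% of the 893 windows of 50 bases were found in no other gene of GENCODE M21, and in that of Olfr1508, 81.9% of 884 windows. The 160 shared windows of each occurred in the other member of the pair and in no other gene. They merge into 4 stretches of 71, 83, 59 and 143 bases, the last of which is the sequence shown above, and cover 37.8% of the Olfr1507 coding sequence. At 25 bases the share of unique windows fell to 64.4% for Olfr1507 and 63.9% for Olfr1508. The shared windows of 25 bases occurred in 29 other receptors for Olfr1507 and in 11 for Olfr1508. For Olfr1509 all 878 windows of 50 bases were unique, as they were among receptor transcripts in 35.1% of 1081 receptors, and 99.9% of its windows of 25 bases. The value of Olfr1509 is thus the one of the 3 that shared coding sequence touches least. Whether reads of Olfr1507 enter the value of Olfr1508 was not tested.

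**Figure D5:**
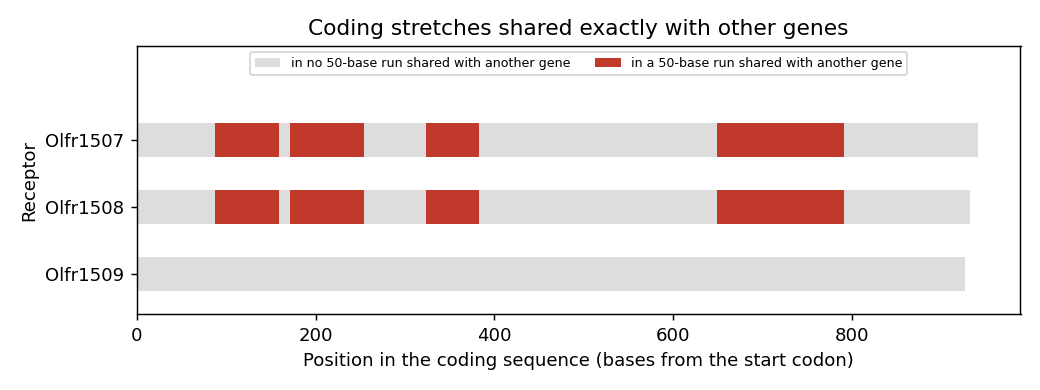
Coding sequence of each receptor (x axis, bases from the start codon, 1 bar per gene) with the parts that lie in a run of 50 bases found in another gene in red and the rest in grey. Olfr1507 and Olfr1508 carry the same 4 red stretches and Olfr1509 has none.

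The gene models behind the values differ among the members. The loci in the table are 5761 bp long for Olfr1507, 4741 bp for Olfr1508 and 1010 bp for Olfr1509, each the same as the length of the RefSeq gene, which holds for 87.7% of all entries. On GRCm38 the RefSeq genes of Olfr1507 and Olfr1508 span the intron that GENCODE annotates, and the locus of Olfr1509 is as long as its single-exon GENCODE transcript. Olfr1507 had the highest FPKM of the 115 entries with a locus longer than 1500 bp, whose median was 2.39, against 1.01 for shorter loci. Among those long loci Olfr1508 stood at place 50 and so nearer to the middle than among all entries.

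The GENCODE M21 genes reach further along the chromosome than these loci for all 3 members. Its longest coding transcript of Olfr1507 has 2 exons, a 5' untranslated region (UTR) of 631 nt and a 3' UTR of 1230 nt. That of Olfr1508 has 2 exons as well, a 5' UTR of 612 nt and a 3' UTR of 4246 nt, which 69 of 1081 receptors (6.38%) equal or exceed. That of Olfr1509 has 3 exons, a 5' UTR of 365 nt and a 3' UTR of 1233 nt. The median receptor has 269 nt and 1526 nt. Relative to RefSeq, the GENCODE gene runs on at the 3' end by 1144 bp for Olfr1507, 3892 bp for Olfr1508 and 1172 bp for Olfr1509, and the GENCODE gene of Olfr1509 begins 7403 bp further upstream. If the authors' models ended where the loci in the table do, fragments from those parts are not in the FPKM.

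The RefSeq table of start sites holds Olfr1508 and Olfr1509. For Olfr1508, whose GENCODE start lies 34 bp from the RefSeq start, the 250 bases before the start are printed because LHX2 and EBF bind at receptor promoters as well as at the H element (chr14:52467462-52467711, GRCm38.p6, minus strand). Capitals mark a match to TAATGA, a homeodomain motif, on the other strand.
Olfr1508: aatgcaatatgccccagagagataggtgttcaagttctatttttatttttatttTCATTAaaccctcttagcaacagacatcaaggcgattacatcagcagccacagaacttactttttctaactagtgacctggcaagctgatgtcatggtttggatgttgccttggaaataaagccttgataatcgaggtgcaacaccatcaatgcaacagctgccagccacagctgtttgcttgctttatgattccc
Over the whole window, from 250 bases before the start to 50 after it, TAATGA was found at 196 bases before the start and once more after the start. The window of Olfr1509 also holds 2 matches to TAATGA, but the part before the start lies inside an intron of the longer GENCODE transcript. On both strands, 29.2% of 919 receptor start windows and 9.78% of all 32851 windows hold TAATGA. Neither window holds TAATTA, found in 18.7% of the receptor windows, or CCCNNGGG, the core of the EBF site, found in 2.94%. A match is a string of letters and says nothing on binding.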

How the data were processed

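RNA was isolated with Trizol and sequenced from TruSeq libraries, per the labels' protocols. The authors deposited 1 table of Olfr genes with a single FPKM for each. TopHat2, Bowtie2, Cuffdiff and the build mm9 are named in the submitters' processing notes, without versions. No source used here gives the gene annotation, the pooling of libraries or the handling of multiply mapped reads.

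From these values, ranks, shares and folds were computed in Python 3.11.15 with pandas 2.3.3. Locus starts were raised by 1 to count from 1. Clusters were runs of loci with gaps under 1 Mb. Proteins were translated from GENCODE M21 coding sequences and aligned globally with Biopython 1.88 (BLOSUM62, gap opening 11, extension 1). The alignment was tested on simulated pairs of equal length that differed by substitutions alone, so the placing of gaps was not tested. GENCODE M21 and the RefSeq tables are on GRCm38 and gave no coordinates for the table. Windows were compared with all GENCODE transcripts on both strands.

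The members, lists and alternatives were chosen with earlier results of these data known, so no test was run. Named genes are the members, the entries next to them in rank or position, the 5 highest of chromosome 14, a list of 5 numbered neighbours and the most alike proteins. The last were limited to the top of 3 per member. Without replicates or depth, no error or interval is given.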

Additional observations from a re-analysis of the deposited data

How the results depend on the processing

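Of 36 alternatives to 13 values, 22 left a share inside its 95% Wilson interval or a log2 distance the same at 2 decimals. These intervals treat entries as draws and served only for this comparison. None reversed a direction, but shares and identities have no sign, and a pseudocount cannot change that of a log2 distance. The sets ranked within chromosome 14 kept 36 to 38 of 39 entries, so those shares could hardly leave their intervals. Olfr1507 kept a place among the top 4 in every set of entries ranked. That outcome was fixed in advance, because each set only leaves out other entries. With entries of status OK alone, the share of entries at or above Olfr1508 went from 24.3% to 29.7% and that of Olfr1509 from 18.3% to 22.4%. Among loci longer than 1000 bp these shares were 29.1% and 25.2%, and among loci longer than 1500 bp, an alternative chosen after seeing the data, it was 43.5% for Olfr1508. The status OK set leaves out 203 entries, all lower than the members; for the locus lengths the cause was not tested. The log2 distances from the chromosome 14 median were 3.39, 0.23 and 0.50 for Olfr1507, Olfr1508 and Olfr1509 with a pseudocount of 1, and 3.82, 0.31 and 0.66 with 0.01. Among entries at FPKM 0.1 or more they were 0.29 for Olfr1508 and 0.63 for Olfr1509. The 3 members held 16.3% of the FPKM of chromosome 14 alone. No paired analysis was possible because each gene has a single FPKM that belongs to no named sample, so leaving out a replicate was not run either.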
